A study of Mus musculus with 30 samples.

Results

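The genes of chromatin modifiers and remodellers were followed in mouse bone marrow-derived macrophages given a β2 adrenergic agonist and then lipopolysaccharide (LPS), the bacterial cell wall component that activates macrophages. The genes were taken by symbol: those starting with Kdm, Kmt, Hdac, Sirt, Brd, Chd, Smarc, Ezh, Cbx, Setd, Dnmt, Tet or Pcgf, plus Rybp, Cdyl and Bend3, which were added by name. This gave 115 of the 24761 gene names in the deposited RNA-seq table. Some matches are not chromatin proteins: Chdh encodes choline dehydrogenase, Brd3os and Dnmt3aos lie antisense to Brd3 and Dnmt3a, and Brd8dc was caught by its name alone.

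The cells were wild-type C57Bl/6 marrow cells differentiated with culture-derived M-CSF. One set of 3 cultures (M2, M3 and M4) was given the agonist metaproterenol hemisulfate, labelled MPH, at 1 µM over the 2 h that preceded LPS, and 7 cultures (D3 to D6, UKD, r1 and r2) were given the vehicle DMSO for the same time. LPS, labelled as 100 ng/µL, was then present for 0, 1 or 2 h, so that the 0 h libraries had the pretreatment without LPS, and each culture gave 1 library per time (9 MPH and 21 DMSO libraries). The labels do not tie cultures to animals, so the p-values below do not measure the spread between animals. Unless a block is named, the tests treat the libraries of a culture as separate. Their p-values then do not measure the spread between cultures alone. In bulk RNA a change in cell make-up cannot be told apart from a change in RNA per cell.

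Chromatin modifiers act on histones, on DNA or on nucleosome position. Lysine methyltransferases (Kmt, Setd, Ezh) write histone methylation and Kdm enzymes remove it; Hdac enzymes and sirtuins remove acetyl groups, which bromodomain proteins bind. CHD and SWI/SNF proteins move nucleosomes with the energy of ATP. Polycomb repressive complex 1 (PRC1), which holds a Pcgf subunit together with either a Cbx protein or Rybp, ubiquitinates histone H2A, and polycomb complex 2 (PRC2), with Ezh1 or Ezh2, methylates lysine 27 of histone H3. Dnmt enzymes methylate cytosine in DNA and Tet enzymes oxidise the methyl group. In macrophages Kdm6b, the histone H3 lysine 27 demethylase also called JMJD3, is known as an LPS-induced gene, and β2 receptors signal through cAMP.

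The values are RPKM, mapped reads per unit of transcript length and of sequencing depth, and a gene with several transcript lines is given by the line with the highest mean. Depth, estimated from the smallest steps in the values, ran from 5.38 to 92.1 M reads per library (median 41.3 M), with 3 libraries under 10 M, those of D4, D6 and UKD at 1 h. The summed level of 7 macrophage markers was 3979 to 6634 RPKM in MPH libraries and 3757 to 7156 RPKM in DMSO libraries. Neutrophil markers summed to 39.3 to 87.3 RPKM in MPH libraries and 5.24 to 89.0 RPKM in DMSO libraries, and B cell, T and NK cell, dendritic, stromal and erythroid or mast cell markers to under 2 RPKM in every library. One library stood apart. Crem, a cAMP-responsive gene, was at 33.0 and 47.9 RPKM in the 1 h libraries of M2 and M3 but at 0.946 RPKM in the 1 h library labelled M4, just under the 1.01 to 3.45 RPKM of D3 to D6; the 0 h and 2 h libraries of M4 were at 21.2 and 10.2 RPKM. Results that rest on MPH at 1 h are therefore given with and without that library.

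Most of the 115 genes were expressed in every library: 76 stood at 1 RPKM or more in all 30 libraries, 11 were below 1 RPKM in all of them, and 20 had a mean of 10 RPKM or more. The highest mean levels were those of the bromodomain protein gene Brd2 (54.9 RPKM), the cytoplasmic deacetylase gene Sirt2 (43.4 RPKM), the NuRD remodeller gene Chd4 (37.3 RPKM), the maintenance DNA methyltransferase gene Dnmt1 (36.0 RPKM) and Brd7 (19.8 RPKM). Among deacetylases Hdac2, Hdac1, Hdac3 and Hdac5 led (14.1, 13.9, 12.6 and 11.5 RPKM), and the SWI/SNF ATPase Smarca4 (18.4 RPKM) stood above its paralog Smarca2 (3.92 RPKM). Ezh2 had a mean of 10.6 RPKM and Ezh1 of 6.24 RPKM. At the low end Tet1 was at 0.00605 RPKM, Smarca1 at 0.0107 RPKM and Dnmt3b at 0.369 RPKM, all below 1 RPKM in all 30 libraries.

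Genes were tested when they reached 1 RPKM in at least 3 libraries of a fit, and 101 of the 115 did so. In the fit of MPH with D3 to D6 the 14 left out were Brd3os, Brd8dc, Brdt, Cbx2, Cbx7, Chd5, Chdh, Dnmt3b, Ezhip, Hdac11, Kdm4d, Smarca1, Smarcd3 and Tet1. Bend3 entered that fit through the 3 MPH libraries of 0 h and 1 DMSO library, so its passing the filter depended on the group where it was high. Its differences from that group are given as a description, with no test read from them, although it enters the counts. In the fit of the 7 DMSO cultures Cbx7 was tested and Bend3 was not. Differences are given as log2(RPKM + 0.5), MPH minus DMSO or LPS minus 0 h, with the adjusted p of limma-trend over all genes and a threshold of 0.05.

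MPH alone, before LPS, moved few of these genes. Chd7, a chromodomain helicase that remodels nucleosomes at enhancers, was the 1 of 101 that rose, and none fell; over all 10239 genes 0.869% were called. The median difference was 0.00 over the 101 genes and -0.04 over all genes. Chd7 had 6.91, 6.04 and 5.68 RPKM in M2, M3 and M4, against 2.47, 1.38, 1.65 and 1.18 RPKM in D3, D4, D5 and D6, so that every MPH library was more than 2 RPKM above every DMSO library, and UKD, r1 and r2 (1.60, 0.878 and 1.15 RPKM) lay with the other DMSO cultures. The log2 difference was 1.66 (SE 0.32, adjusted p = 0.0145). With the culture as a random block, which takes the shared spread of a culture's 3 libraries into account, the adjusted p was 0.0991, and it was 0.0642, 0.0980, 0.0885 and 0.107 without M3, D4, D5 and D6.

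Bend3 is described here without a test. Beside it, the genes with the next smallest p-values were Hdac5, Kdm6b and Cdyl, which did not pass at 0 h. The fit does not pair MPH with DMSO cultures, since the labels give no such pairs. Bend3, whose protein has BEN domains and binds heterochromatin, had 1.16, 1.85 and 1.36 RPKM in M2, M3 and M4, against 0.703, 0.695, 0.806 and 0.730 RPKM in D3 to D6 (log2 difference 0.65, SE 0.15). Hdac5, a class IIa deacetylase that shuttles between nucleus and cytoplasm, had 18.8, 23.0 and 29.1 RPKM in the MPH cultures, against 7.28, 10.4, 15.8 and 15.0 RPKM in D3 to D6 (0.98, SE 0.26, adjusted p = 0.110). Neither gene's groups overlapped. Kdm6b was at 1.75, 1.47 and 2.10 RPKM in the MPH cultures, against 0.493, 0.339, 0.617 and 0.425 RPKM in D3 to D6, again without overlap (1.23, SE 0.42, adjusted p = 0.305). Cdyl, which encodes a chromodomain protein that binds methylated histone H3, differed by -0.33 (adjusted p = 0.488). Against all 7 DMSO cultures Hdac5 also passed (adjusted p = 0.00901). In all, 8 of the 101 genes had all 3 MPH libraries above D3 to D6 at 0 h, among them Bend3, Chd7, Hdac5, Kdm6b, Pcgf6 and Rybp, against 3.56% of all genes tested, and 1 had all 3 below (Kdm3b), against 3.98%.

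At 1 h of LPS no chromatin gene passed, as 0% of all genes tested did; by limma-trend 2 of the 101 and 327 of the 10239 had an unadjusted p under 0.05. Chd7 had 7.16, 6.92 and 2.44 RPKM in M2, M3 and M4, against 3.07, 2.32, 2.43 and 2.30 RPKM in D3 to D6. The library labelled M4 lay among the DMSO libraries and the other MPH libraries were above all of them. The difference was 0.87 (SE 0.32, adjusted p = 1.00), and without that library 1.32 (SE 0.29, adjusted p = 0.0298). Hdac5 had 13.9, 18.3 and 13.0 RPKM in the MPH cultures, against 5.52, 8.69, 11.5 and 11.1 RPKM in D3 to D6 (0.72, adjusted p = 1.00). It was the 1 gene of the 101 whose MPH libraries all lay above D3 to D6 at 1 h, against 0.918% of all genes, and none lay below, against 0.566%. Dnmt3a (-0.57), Rybp (0.29) and Smarcc2 (-0.21) had the next smallest p-values and did not pass. Without the library labelled M4, Chd7 was the 1 of 101 called, against 1.34% of all genes. Hdac5 (0.81, adjusted p = 0.336), Dnmt3a (-0.96, adjusted p = 0.225), Rybp (0.37, adjusted p = 0.629) and Smarcc2 (-0.38, adjusted p = 0.220) did not pass. In M2 and M3 alone, 5 genes lay above D3 to D6, Hdac5 and Chd7 among them, against 7.63% of all genes, and 7 below, against 6.91%.

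At 2 h of LPS a pair of polycomb-related genes, Rybp and Cdyl, rose in the MPH cultures relative to DMSO, and none of the 101 fell; 0.869% of all genes tested were called. Rybp encodes the RING1 and YY1 binding protein, a subunit of the PRC1 forms that lack a Cbx protein. Both genes had been added to the list by name with earlier results of these data known, so their calls are not independent evidence. Rybp had 4.26, 2.80 and 4.29 RPKM in M2, M3 and M4, against 1.56, 1.11, 1.61 and 1.45 RPKM in D3 to D6, and UKD, r1 and r2 were at 1.57, 1.26 and 1.18 RPKM. All MPH libraries were above all DMSO libraries, with M3 the lowest of the MPH cultures. The difference was 1.14 (SE 0.18, adjusted p = 0.00842), and the adjusted p was 0.0690 and 0.0550 without D4 and D5 and 0.0579 with the culture as a random block. Cdyl was at 6.75, 6.83 and 6.87 RPKM in M2, M3 and M4, against 3.97, 4.12, 3.97 and 4.50 RPKM in D3 to D6; r1 was the highest DMSO library (5.31 RPKM). The 3 MPH cultures differed from each other by little more than 0.1 RPKM and did not overlap DMSO. The 5 transcript lines of Cdyl, of which the one used is non-coding, gave differences of 0.65 to 0.68. The difference was 0.66 (SE 0.13, adjusted p = 0.0206), with an adjusted p of 0.211 with the culture as a random block and of 0.0773, 0.0999, 0.0609, 0.0747 and 0.134 without M2, M3, M4, D4 and D5.

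**Figure D1:**
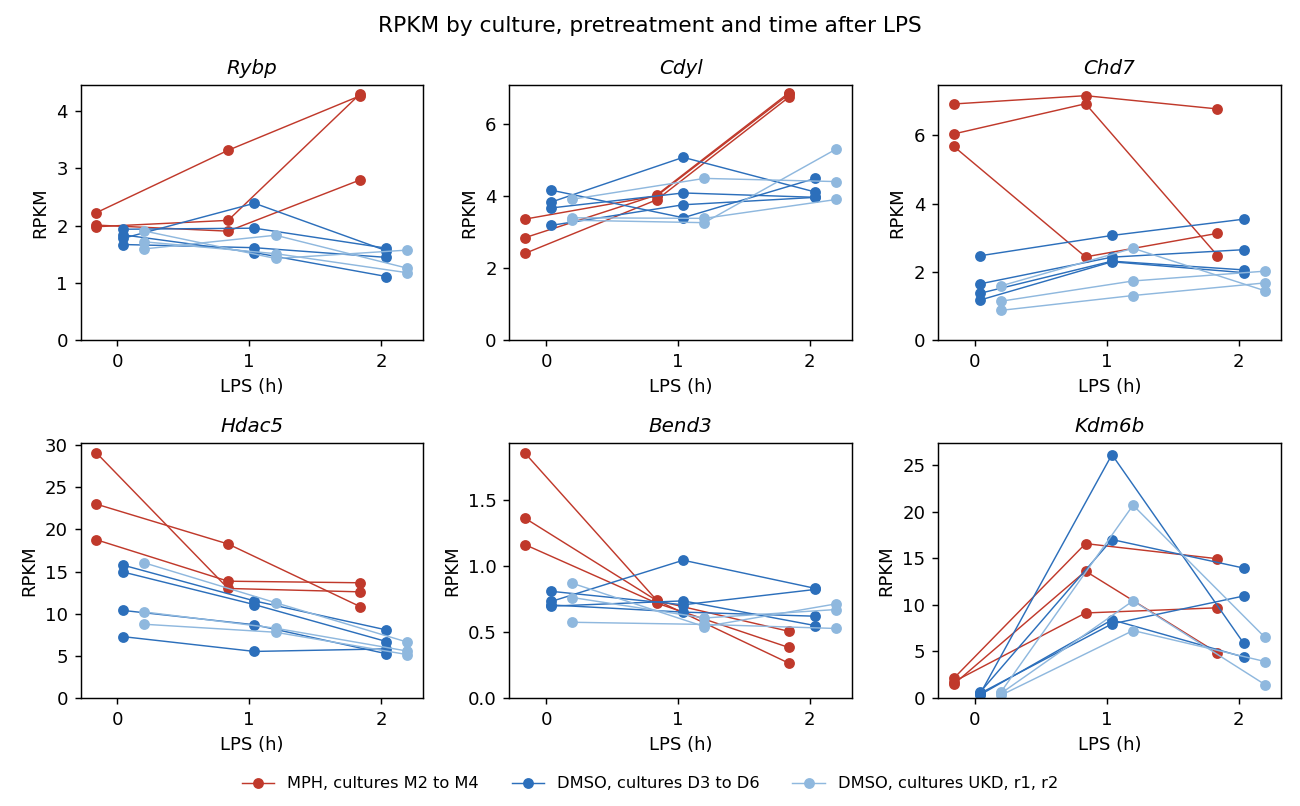
RPKM of 6 chromatin genes (vertical axes, from 0) against hours of LPS, with 1 line per culture: MPH in red, DMSO cultures D3 to D6 in dark blue and UKD, r1 and r2 in light blue. Rybp and Cdyl separate at 2 h (Rybp 2.80 to 4.29 RPKM under MPH, 1.11 to 1.61 RPKM under DMSO), Chd7 and Bend3 at 0 h, and Hdac5 lies higher under MPH at all 3 times.

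Hdac5 remained on the higher side at 2 h, with 13.7, 10.8 and 12.6 RPKM in the MPH cultures, against 5.82, 5.25, 8.07 and 6.70 RPKM in D3 to D6. Its MPH libraries were above those of all 7 DMSO cultures at 0, 1 and 2 h, although the difference of 0.90 at 2 h (SE 0.26) had an adjusted p of 0.136 against D3 to D6 and of 0.00929 against all 7. Tet2 (-0.60, adjusted p = 0.188), the class IIa deacetylase gene Hdac9 (-1.14, adjusted p = 0.319) and the de novo DNA methyltransferase gene Dnmt3a (-0.83, adjusted p = 0.344) did not pass. Bend3, given as a description, differed by -0.45. Tet2 passed without D3 (-0.77, adjusted p = 0.0390) but in no other fit that left out a culture. It also passed against all 7 DMSO cultures. Dnmt3a had 2.44, 2.45 and 2.68 RPKM in the MPH cultures, against 4.10, 4.78, 5.16 and 5.61 RPKM in D3 to D6, with no overlap. At 2 h, 4 genes had all MPH libraries above D3 to D6 (Cdyl, Chd4, Hdac5 and Rybp), against 4.29% of all genes, and 4 had all below (Bend3, Dnmt3a, Hdac9 and Smarcc2), against 5.22%.

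Among the roles, DNA methylation and demethylation had the lowest median difference between MPH and DMSO at 0, 1 and 2 h (-0.20, -0.23 and -0.47). At 2 h none of its 6 tested genes passed, and the other roles had medians between -0.05 and 0.11 log2 units, beside -0.02 over all genes. Of other named genes, Hdac3 differed by 0.00, Smarca4 by -0.09 and Ezh2 by -0.32 at 2 h (SE 0.11, 0.16 and 0.37), all with an adjusted p of 1.00. No gene of the 10 lists of partner proteins (PRC1 and PRC2, SWI/SNF, NuRD, COMPASS and deacetylase corepressors, histone acetyltransferases, other methyltransferases, other demethylases and ISWI or INO80 proteins) passed at 0, 1 or 2 h, out of 108 tested.

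**Figure D2:**
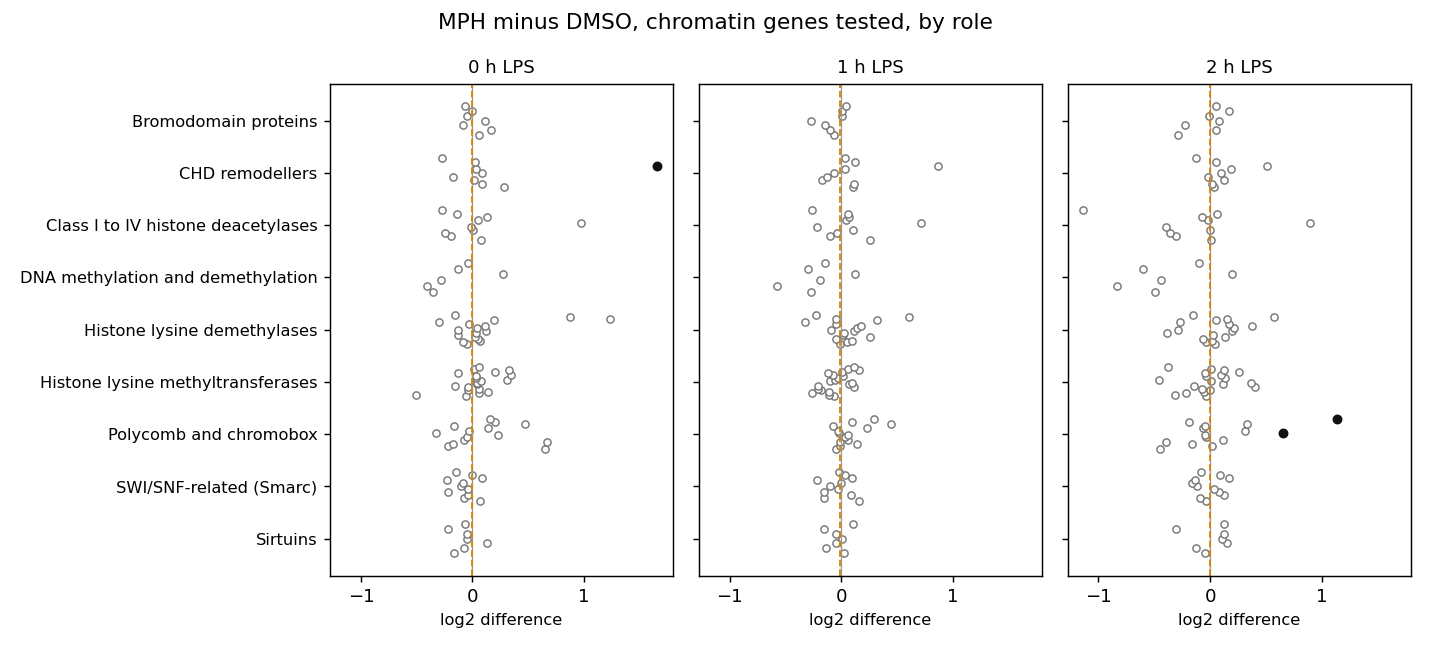
Log2 difference of MPH minus DMSO (horizontal axes) for the 101 chromatin genes tested, by role (rows), at 0, 1 and 2 h of LPS; filled points passed the adjusted p threshold, open points did not, and the dashed line is the median of the 101. The filled points are Chd7 at 0 h (1.66) and Rybp and Cdyl at 2 h (1.14 and 0.66); most others lie close to 0.

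In the main fit the LPS response itself differed between MPH and DMSO for Cdyl. From 0 to 2 h of LPS, Cdyl rose in all 3 MPH cultures (log2 changes 0.92 to 1.31) and its change in the 7 DMSO cultures was 0.09 to 0.60. The difference of the 2 responses, MPH minus DMSO, was 0.98 (SE 0.18, adjusted p = 0.0358), 1 of 101 chromatin genes called, against 0.107% of all genes. It did not pass when any 1 of the 7 cultures in the fit was left out: the adjusted p was 0.291, 0.198, 0.257, 0.103, 0.124, 0.314 and 0.106 without M2, M3, M4, D3, D4, D5 and D6. With the culture as a fixed block, 4 chromatin genes were called instead, against 1.43% of all genes: Cdyl (adjusted p = 0.00507) and Rybp (0.98, adjusted p = 0.0159) were more positive under MPH, and 2 were more negative, Bend3 being 1 of them. Cdyl, Rybp and Bend3 had been added to the list by name with earlier results of these data known. Their calls and the counts here are therefore not independent evidence, and for Bend3 no test is read.

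In the single cultures, Rybp went up by 0.39 to 0.95 over the 2 h in 3 of 3 MPH cultures and changed by -0.54 to -0.14 in 7 of 7 DMSO cultures. Bend3 changed by -1.62 to -0.89 in the 3 MPH cultures, ending at 0.382, 0.264 and 0.504 RPKM in M2, M3 and M4, and by -0.19 to 0.11 in the 7 DMSO cultures, which ended at 0.526 to 0.829 RPKM. Without a block, Rybp (adjusted p = 0.264) and Chd7 (-1.14, adjusted p = 1.00) did not pass. For the response at 1 h no chromatin gene passed, with or without the block, against 0.195% of all genes with it and 0% without. By limma-trend 2 of the 101 and 83 of the 10239 had an unadjusted p under 0.05. None of the 101 passed there without the 1 h library labelled M4 either, against 0.00977% of all genes.

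Promoter windows of 250 bases before to 50 after a transcript start (RefSeq, GRCm38.p6) were at hand for 92 of the 115 genes. Matches were counted on both strands for the cAMP response element TGACGTCA, its core TGACG (which lies within the full element) and the AP-1 element TGANTCA. The core was in a window of 27 of the 92 genes (29.3%), against 23% of the 27025 genes in the table and 20.8% of all 32851 windows. The full element was in 1 of the 92 (1.09%), that of Cbx8, against 2.03% of genes, and TGANTCA in 12 of the 92 (13%), against 8.97% of genes. The windows of chromatin genes had a median GC content of 63.3% and 24 CpG, against 52.7% and 7 CpG over all windows. The windows below are a selection from the named genes, with 1 window each for Cdyl and Bend3, which have more. Other named genes also had windows, such as Tet2 and Brd2 with the core and Pcgf3 with TGANTCA, and are not shown. The selection does not represent the 92 genes. Capitals mark motif matches. The printed windows lie at chr11:102230123-102230422, minus strand (Hdac5), chr10:43478890-43479189, plus strand (Bend3), chr11:119040864-119041163, minus strand (Cbx8), and chr13:35741212-35741511, plus strand (Cdyl).
Hdac5: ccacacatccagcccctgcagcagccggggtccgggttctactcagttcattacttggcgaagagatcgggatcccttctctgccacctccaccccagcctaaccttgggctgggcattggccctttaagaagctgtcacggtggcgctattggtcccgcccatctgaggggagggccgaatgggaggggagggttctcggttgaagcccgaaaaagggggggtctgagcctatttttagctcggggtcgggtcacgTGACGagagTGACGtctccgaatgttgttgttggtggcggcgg
Bend3: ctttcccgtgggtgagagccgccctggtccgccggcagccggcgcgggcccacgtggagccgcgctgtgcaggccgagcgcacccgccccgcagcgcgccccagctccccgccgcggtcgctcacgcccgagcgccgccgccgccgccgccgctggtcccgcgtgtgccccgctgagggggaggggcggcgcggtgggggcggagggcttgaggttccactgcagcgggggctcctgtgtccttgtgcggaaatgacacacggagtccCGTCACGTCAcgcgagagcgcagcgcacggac
Cbx8: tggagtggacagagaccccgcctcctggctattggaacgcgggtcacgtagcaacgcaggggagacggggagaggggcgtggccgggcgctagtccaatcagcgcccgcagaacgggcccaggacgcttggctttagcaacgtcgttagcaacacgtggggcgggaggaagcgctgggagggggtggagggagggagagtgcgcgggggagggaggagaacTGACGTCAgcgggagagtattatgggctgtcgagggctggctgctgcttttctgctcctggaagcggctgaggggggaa
Cdyl: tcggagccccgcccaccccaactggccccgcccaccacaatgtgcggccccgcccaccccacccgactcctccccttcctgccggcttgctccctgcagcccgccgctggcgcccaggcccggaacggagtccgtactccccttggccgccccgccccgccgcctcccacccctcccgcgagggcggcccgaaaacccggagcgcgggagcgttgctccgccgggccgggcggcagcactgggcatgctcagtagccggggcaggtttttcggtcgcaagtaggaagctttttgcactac
The Hdac5 window holds the core at bases 258 and 267 of 300, the Bend3 window at bases 269 and 274, next to each other on the reverse strand, and the Cbx8 window the full element at base 222. The Cdyl window printed holds none of the 3 motifs, but another of its windows, chr13:35659612-35659911 on the plus strand, holds TGANTCA at base 123. A match is a description of the sequence and not a binding site.

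LPS changed many chromatin genes. In unscaled RPKM most of those called in DMSO were lower, as were most of all genes called. In the 7 DMSO cultures, 5 of 101 rose and 11 fell at 1 h, against 5.24% and 15% of all genes tested, and 13 rose and 56 fell at 2 h, against 10.5% and 43.6%. The median change at 2 h was -0.30 over the chromatin genes and -0.25 over all genes. RPKM is relative to each library's total: under median-of-ratios scaling the median of all genes moved up by 0.21 at 2 h and by 0.13 at 1 h, with 100 chromatin genes tested. Those called became 21 higher and 30 lower at 2 h, against 16.7% and 21.1% of all genes, and 6 higher and 4 lower at 1 h, against 6.54% and 5.28%. The share of higher among all calls moved with it to 44.2%, against 19.4% unscaled, at 2 h, and to 55.3%, against 25.8%, at 1 h. With the culture as a fixed block, 6 rose and 36 fell at 1 h (42 in place of 16), against 8.71% and 44.8% of all genes in that fit.

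In the MPH cultures 1 of 101 rose and 2 fell at 1 h, against 1.89% and 1.18% of all genes. Without the library labelled M4 the counts were again 1 and 2, against 2% and 1.14%. At 2 h 6 rose and 20 fell, against 5.97% and 14.7%. The median change at 2 h was -0.28 over the chromatin genes and -0.23 over all genes. With the culture as a fixed block the counts were 3 higher and 10 lower at 1 h, against 4.66% and 7.41% of all genes in that fit, and 11 higher and 47 lower at 2 h, against 11.7% and 42.8%. Scaling moved the median of all genes by 0.19 at 2 h, with 8 higher and 12 lower chromatin genes of 100, against 7.73% and 6.33% of all genes. Then 55.0% of all calls were higher, against 28.8% unscaled. At 1 h 73.9% of all calls were higher when scaled, against 61.6% unscaled, with 2 chromatin genes higher and 1 lower, against 2.11% and 0.744% of all genes. The counts under MPH and DMSO come from 3 and 7 cultures and are not set against each other.

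The largest rises under both pretreatments at 2 h were those of Kdm6b and Tet2. Kdm6b, the demethylase of histone H3 lysine 27, rose by 2.55 at 1 h (SE 0.45, adjusted p = 0.00184) and 2.06 at 2 h (SE 0.45, adjusted p = 0.00346) in the MPH cultures, against rises of 3.74 (SE 0.30, adjusted p = 1.78e-08) and 2.65 (SE 0.30, adjusted p = 8.16e-07) in the DMSO cultures. Its level was 1.75, 9.13 and 9.68 RPKM at 0, 1 and 2 h in M2, 1.47, 13.6 and 4.84 RPKM in M3 and 2.10, 16.6 and 15.0 RPKM in M4. In the 7 DMSO cultures its median was 0.493 RPKM (0.305 to 0.677) at 0 h, 10.4 RPKM (7.24 to 26.1) at 1 h and 5.86 RPKM (1.44 to 13.9) at 2 h. Without the 1 h library labelled M4 the 1 h rise under MPH was 2.37 (adjusted p = 0.0123). The 0 h and 1 h libraries did not overlap under either pretreatment, and at 1 h and 2 h the MPH and DMSO libraries did. Without M4 the 2 h rise under MPH was 1.81 (adjusted p = 0.0511), and the responses under MPH and DMSO were not shown to differ (-1.28 at 1 h and -1.07 at 2 h, both with an adjusted p of 1.00; -1.46 at 1 h without the library labelled M4, adjusted p = 0.999).

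Tet2, which oxidises 5-methylcytosine, rose by 1.20 at 2 h in the MPH cultures (SE 0.20, adjusted p = 0.000433) and by 1.75 in the DMSO cultures (SE 0.14, adjusted p = 9.26e-09). It had 4.04, 5.69 and 5.20 RPKM at 2 h, against 2.21, 1.80 and 1.64 RPKM at 0 h, in M2, M3 and M4, and a median of 8.08 RPKM (5.31 to 11.9) at 2 h, against 2.09 RPKM (1.51 to 2.68) at 0 h, in the 7 DMSO cultures. Every 2 h library was above every 0 h library. Its paralog Tet3 moved the other way, by -1.48 in the MPH cultures (SE 0.25, adjusted p = 0.000397) and -1.46 in the DMSO cultures (SE 0.13, adjusted p = 2.99e-08). Tet3 fell to 2.11, 1.25 and 1.20 RPKM at 2 h in M2, M3 and M4, against 4.21, 5.13 and 5.88 RPKM at 0 h, and in the DMSO cultures to a median of 1.39 RPKM (1.13 to 2.87) at 2 h, against 5.33 RPKM (4.25 to 5.99) at 0 h.

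Other rises were smaller. Brd2, a BET bromodomain protein and the most abundant of the 115 transcripts, had 63.6, 50.5 and 101 RPKM at 2 h, against 42.8, 30.4 and 50.0 RPKM at 0 h, in M2, M3 and M4 (0.76, adjusted p = 0.132). It rose by 0.83 in the DMSO cultures (SE 0.18, adjusted p = 0.000714), higher in 7 of 7. Brd2 had 3 transcript lines, and the one used is non-coding. Its paralog Brd3 fell by 0.88 in the MPH cultures (adjusted p = 0.00226) and by 0.78 in the DMSO cultures (adjusted p = 2.53e-06); an antisense transcript overlaps Brd3 and the counting is not stated to use strand. The variant PRC1 subunit gene Pcgf3 rose by 0.78 under MPH (SE 0.18, adjusted p = 0.00531; 0.0792 and 0.0658 without M3 and M4) and by 0.68 under DMSO (SE 0.12, adjusted p = 0.000123). Chd2 rose by 0.58 under MPH (adjusted p = 0.0209; 0.0683, 0.0937 and 0.0854 without M2, M3 and M4) and by 0.47 under DMSO (adjusted p = 0.00032). Other higher calls at 2 h in DMSO were Kdm4a (0.65), Dnmt3l (0.56), Chd7 (0.45), Chd1 (0.45) and Smarce1 (0.22). Also higher were Kmt5a (0.30, adjusted p = 0.0497) and Kdm5c (0.29, adjusted p = 0.0386; 0.0509 to 0.111 without D4, D5, D6, UKD, r1 or r2). Under MPH the other 2 were Cdyl (1.12, adjusted p = 1.53e-05) and Rybp (0.72, adjusted p = 0.0118; 0.140 without M4).

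**Figure D3:**
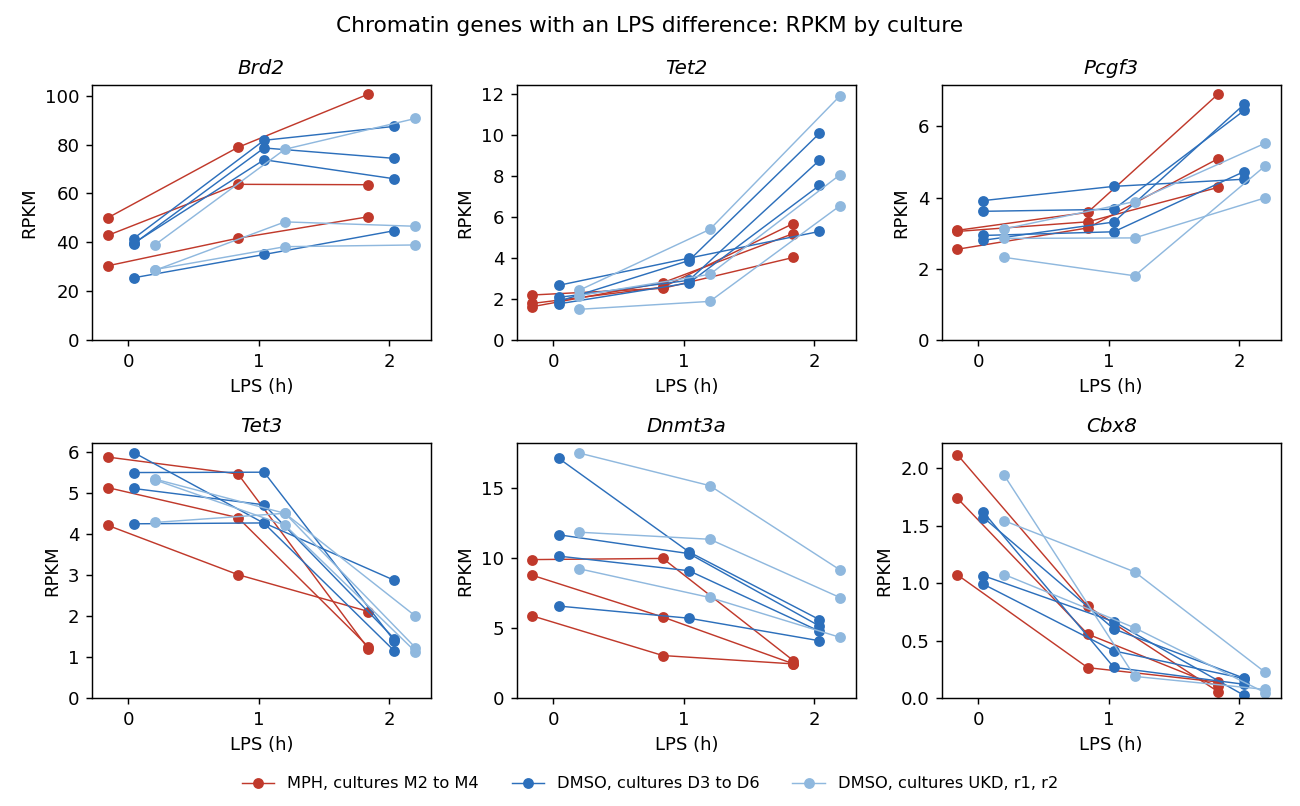
RPKM of 6 chromatin genes (vertical axes, from 0) against hours of LPS, with 1 line per culture: MPH in red, DMSO in dark blue (D3 to D6) and light blue (UKD, r1, r2). Brd2, Tet2 and Pcgf3 climb and Tet3, Dnmt3a and Cbx8 drop; Tet2 reaches 4.04 to 5.69 RPKM under MPH and 5.31 to 11.9 RPKM under DMSO at 2 h.

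The chromodomain genes Cbx8 and Cbx6 and the DNA methyltransferase genes Dnmt3a and Dnmt1 fell at 2 h. Cbx8, whose protein binds trimethylated lysine 27 of histone H3, had 1.74, 1.07 and 2.12 RPKM at 0 h, 0.557, 0.264 and 0.798 RPKM at 1 h and 0.101, 0.139 and 0.0547 RPKM at 2 h in M2, M3 and M4. In the DMSO cultures its median was 1.54 RPKM (0.991 to 1.94) at 0 h, 0.602 RPKM (0.188 to 1.10) at 1 h and 0.119 RPKM (0.0223 to 0.225) at 2 h. No 2 h library overlapped a 0 h library under either pretreatment. The change at 2 h was -1.81 in the MPH cultures (SE 0.23) and -1.61 in the DMSO cultures (SE 0.15), on a scale that understates changes of low genes. Cbx8 reached 1 RPKM in 10 of the 30 libraries, none of them at 2 h. It passed the filter mostly through the 0 h libraries, where it was high. As for Bend3, no test is read from its falls, although it enters the counts. These values rest on few reads, an estimated 3 to 452 per library (median 55). Cbx6 fell by 0.93 under MPH (adjusted p = 0.0177) and by 0.92 under DMSO (adjusted p = 1.12e-05).

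Dnmt3a fell by 1.49 at 2 h in the MPH cultures (SE 0.34, adjusted p = 0.00482; 0.0721 without M3) and by 0.98 in the DMSO cultures (SE 0.17, adjusted p = 7.75e-05), lower in 3 of 3 and 7 of 7 cultures. Reads from its antisense transcript Dnmt3aos, which fell too in DMSO (-0.71), cannot be told apart without strand. It had 2.44, 2.45 and 2.68 RPKM at 2 h, against 5.87, 8.78 and 9.90 RPKM at 0 h, in M2, M3 and M4, and a median of 5.16 RPKM (4.10 to 9.16) at 2 h, against 11.7 RPKM (6.58 to 17.5) at 0 h, in the DMSO cultures. Dnmt1 fell by 0.93 (SE 0.26, adjusted p = 0.0186) and by 0.80 (SE 0.12, adjusted p = 2.1e-05), to 18.8 ± 3.64 RPKM in the MPH cultures and 27.2 ± 6.21 RPKM in the DMSO cultures (SD, n = 3 and 7). All 6 tested genes of DNA methylation and demethylation were called in DMSO at 2 h, beside 10.5% of all genes higher and 43.6% lower. Of these Tet2 and Dnmt3l were higher and Tet3, Dnmt3a, Dnmt1 and Dnmt3aos lower. The values of Dnmt3l and Dnmt3aos rest on few reads, an estimated 3 to 133 (median 38) and 5 to 151 (median 39) per library. Without strand, Dnmt3a and Dnmt3aos may share reads and are not 2 separate results.

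For the counts by role that follow, 10.5% of all genes were higher and 43.6% lower at 2 h in DMSO, and 5.97% and 14.7% under MPH. Several of these shares lie near those of all genes. Among histone methyltransferases 1 of 20 rose and 10 fell at 2 h in DMSO, and none rose and 3 fell under MPH. Setd7, a lysine methyltransferase of histone H3 and other proteins, changed by -1.19 under MPH (SE 0.24, adjusted p = 0.00224) and -0.98 under DMSO (SE 0.13, adjusted p = 4.93e-06), and Setdb1, which trimethylates lysine 9 of histone H3, by -0.76 (adjusted p = 0.000654) and -0.81 (adjusted p = 1.35e-07). Setd4 (-0.71) was the other one counted as lower under MPH. It reached 1 RPKM in 7 of the 30 libraries and passed the filter in 4 of the 7 fits that left out a culture. No test is therefore read from its fall, although it enters the counts. Kmt5c, which methylates lysine 20 of histone H4, changed by -1.10 under DMSO (adjusted p = 2.12e-05). Of the sirtuins 1 of 7 fell under MPH (Sirt3, -0.66) and 4 of 7 under DMSO (Sirt3 -0.72, Sirt4 -0.81, Sirt5 -0.62 and Sirt7 -0.71), the first 3 of these encoding mitochondrial proteins, while Sirt2 stood at 0.00. Of 10 deacetylases 2 fell under MPH (Hdac5, -0.89, and Hdac9, -1.33) and 6 under DMSO, among them Hdac5 (-0.86) and Hdac3 (-0.33), the catalytic subunit of the NCoR corepressor. Of the Smarc genes 1 of 11 fell under MPH (Smarcal1, -0.38), and under DMSO 1 rose and 7 fell, the largest fall being that of Smarcal1 (-0.46); Smarca4 was at -0.06 (adjusted p = 0.585). Under the scaling above, the fall of Hdac3 in DMSO did not pass (-0.11, adjusted p = 0.161). Neither did that of Rybp in DMSO (-0.27 unscaled, adjusted p = 0.0179; -0.10 scaled, adjusted p = 0.456). Tet3, Dnmt3a, Dnmt1, Setd7, Setdb1 and Kmt5c still passed as lower in DMSO. Under MPH the falls of Dnmt1, Kdm2b, Hdac9, Sirt3, Hdac5, Kdm2a and Smarcal1 did not pass when scaled (adjusted p 0.0610 to 0.280), and Setd4 fell under the RPKM filter.

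**Figure D4:**
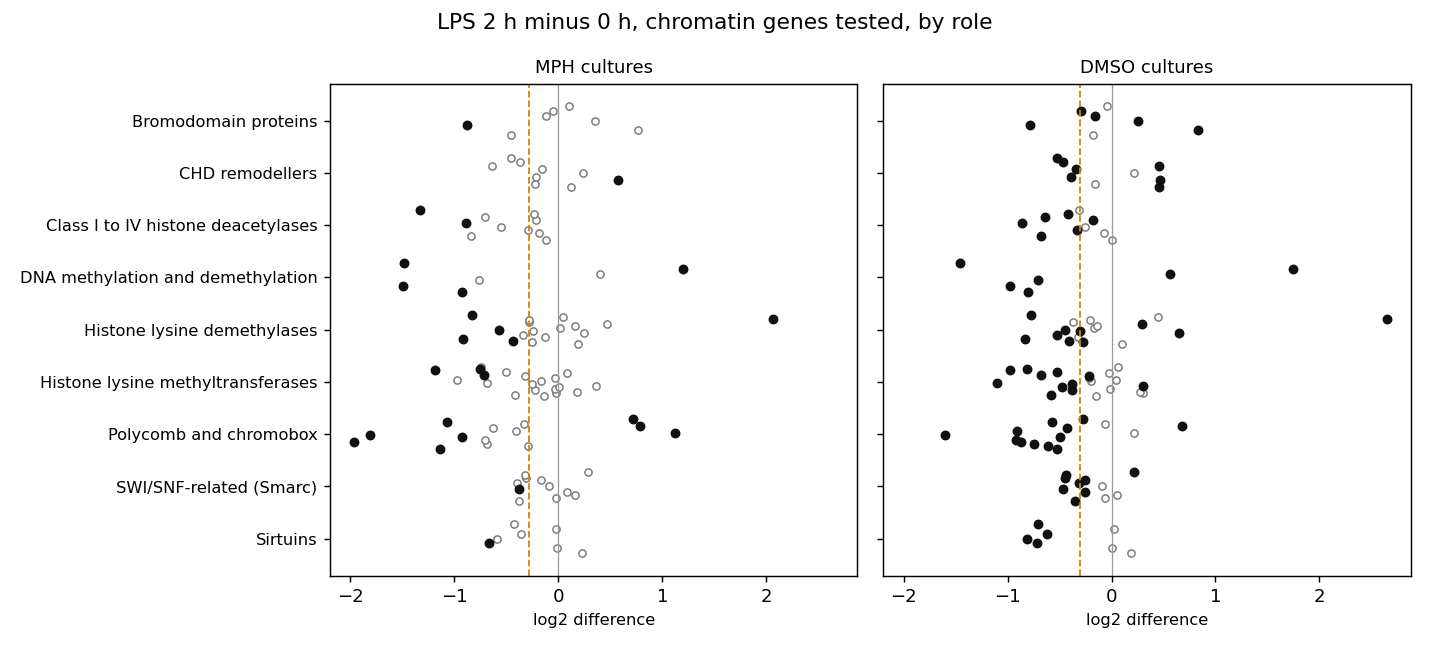
Log2 change from 0 to 2 h of LPS (horizontal axes) of the chromatin genes tested, by role (rows), in the MPH cultures (left) and the 7 DMSO cultures (right); filled points passed the adjusted p threshold and the dashed lines mark the medians of the genes shown (-0.28 and -0.30). Kdm6b and Tet2 lie farthest to the right in both panels, and Tet3, Cbx8 and Dnmt3a are among the lowest.

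At 1 h of LPS in DMSO the higher calls were Kdm6b, Brd2 (0.78), Tet2 (0.58), Chd7 (0.50; adjusted p = 0.0194, and 0.0503 and 0.0533 without D5 and D6) and Chd2 (0.33; adjusted p = 0.0161, and 0.0751 without r1). The lower ones were Cbx8 (-0.89), Sirt4 (-0.61), Setd7 (-0.52), Brd3 (-0.47), Sirt3, Pcgf6, Kdm2a, Setdb1, Kdm3b, Smarcd2 and Hdac3. Under median-of-ratios scaling Sirt3, Pcgf6, Kdm2a, Setdb1, Kdm3b, Smarcd2 and Hdac3 did not pass (adjusted p 0.109 to 0.457). Of the 16 calls, 10 passed whichever culture was left out, and the 6 that did not were Chd2, Chd7, Sirt3, Smarcd2, Hdac3 and Pcgf6. Without the shallow 1 h libraries of D4, D6 and UKD, Chd7 and Chd2 did not pass either (adjusted p = 0.101 and 0.112). Under MPH the lower calls at 1 h were Cbx8 (-1.05, not called without M2 or without M4) and Bend3 (-0.65). Both are given without a test for the reasons above. Without the 1 h library labelled M4 alone, Cbx8 differed by -1.22 and Brd3 (-0.73, adjusted p = 0.0266) was the other lower call.

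The partner proteins of these complexes had their own LPS changes, to be read beside the same shares of all genes (10.5% higher and 43.6% lower in DMSO, 5.97% and 14.7% under MPH). Of 11 PRC1 partners tested, 3 rose and 5 fell at 2 h in DMSO and 1 rose and 1 fell under MPH. Rnf2, the catalytic RING1B subunit, rose by 1.05 under MPH (adjusted p = 0.0377) and by 1.34 under DMSO (adjusted p = 2.31e-05). Bcor, a scaffold of a variant PRC1, rose by 2.12 under DMSO (adjusted p = 1.67e-07), and L3mbtl2 fell by 0.86 and 0.77. Of 9 PRC2 partners, 2 rose and 2 fell in DMSO: the accessory subunit genes Aebp2 (1.50) and Jarid2 (1.27) and the core subunit genes Eed (-0.55) and Rbbp4 (-0.32); under MPH Aebp2 (1.29) and Eed (-0.67) were called. Of 12 histone acetyltransferases none rose and 8 fell in DMSO, among them Ncoa3 (-0.81), Ep300 (-0.66) and Kat2a (-0.62), and 1 fell under MPH (Kat2a, -0.68). Of 13 SWI/SNF partners 1 rose and 7 fell in DMSO and 3 fell under MPH, with Bcl7a at -1.25 under DMSO and -1.04 under MPH. The lists of partners had median changes in DMSO between -0.44 and -0.17, beside -0.25 over all genes. All these changes are of unscaled RPKM. Median-of-ratios scaling moved the median of all genes up by 0.21 at 2 h in DMSO. Scaled values of the partner genes are not given, so small falls such as that of Rbbp4 are not shown to hold under scaling.

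The sex-linked members of the list split the cultures. Kdm5d, the Y-linked demethylase of histone H3 lysine 4, was at 1.44 to 2.37 RPKM in M2 and M4 and 1.58 to 3.34 RPKM in D3, D5, D6, UKD, r1 and r2, but at 0.0114, 0.00674 and 0.00592 RPKM (0, 1 and 2 h) in M3 and at 0.00603, 0.0188 and 0.00567 RPKM in D4. Xist, the RNA of the inactive X chromosome, was at 15.6, 20.0 and 21.3 RPKM in M3 and 19.8, 21.5 and 18.5 RPKM in D4 and at 0.0104 RPKM or less in the other 8 cultures. The X-linked demethylase gene Kdm6a, a paralog of Kdm6b, was at 5.88, 8.22 and 4.46 RPKM in M3 and 4.86, 6.11 and 5.11 RPKM in D4, above the other cultures of the same pretreatment at each time. Kdm5c, the X-linked paralog of Kdm5d, had 6.42, 6.97 and 11.2 RPKM in M3 and 6.75, 6.85 and 9.32 RPKM in D4, again the highest of their pretreatment at each time. With these cultures marked by a covariate, chosen after seeing the data, Chd7 (1.67) and Ezh2 (-0.58, adjusted p = 0.0446) were among those that passed between MPH and DMSO at 0 h, none passed at 1 h, and Rybp (1.16), Cdyl (0.65) and Hdac9 (-1.21, adjusted p = 0.0169) passed at 2 h.

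**Figure D5:**
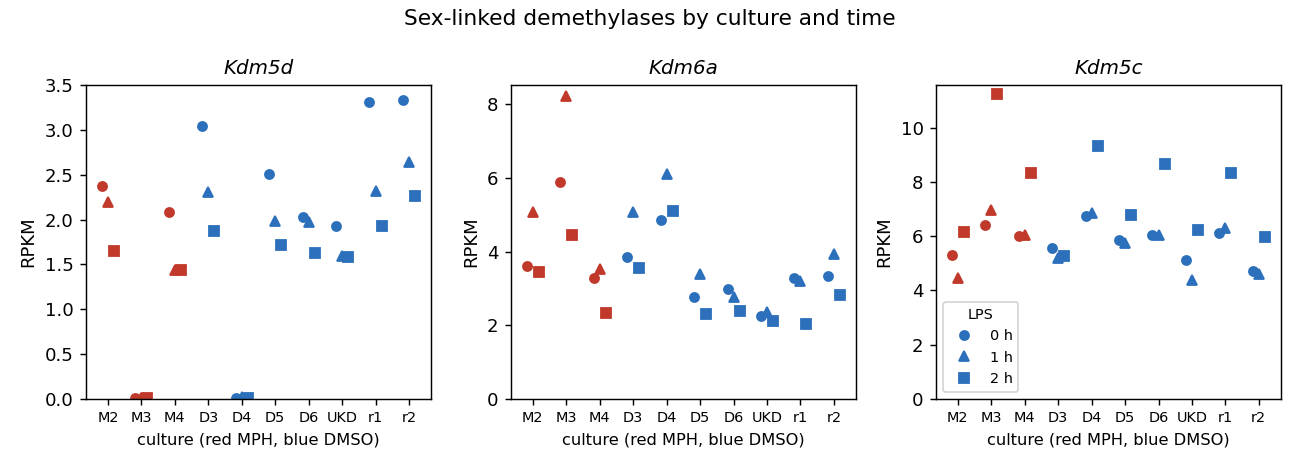
RPKM of Kdm5d, Kdm6a and Kdm5c (vertical axes, from 0) in each culture, with MPH cultures in red on the left and DMSO cultures in blue; symbols give hours of LPS. Kdm5d is near 0 in M3 and D4, where Kdm6a and Kdm5c are highest of their pretreatment.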

How the data were processed

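RNA-seq of 30 libraries was used as the RPKM values deposited by the authors, 44401 transcript lines with 24761 gene names. Per the submitters' processing notes, cutadapt, FastQC, HISAT2 and SAMtools were used with the mm9 mouse build, no version being stated. Which program counted the reads, and whether by strand, is not given in the sources used here. Libraries were made with a TruSeq v2 kit, per the labels' protocols. For each name the line with the highest mean was kept, values became log2(RPKM + 0.5), and genes at 1 RPKM or more in at least 3 libraries of a fit entered limma-trend (two-sided; limma 3.58.1 in R 4.3.3) with Benjamini-Hochberg adjustment over all genes tested. One fit held the MPH cultures M2 to M4 with D3 to D6 (a mean per treatment and time over 10239 genes), another the 7 DMSO cultures (10212 genes), where the naming series of the culture entered as a covariate. In a check on simulated data with 200 changed genes the script recovered the simulated directions. The simulated libraries were independent, without culture effects, and the changes exceeded those of the chromatin genes between MPH and DMSO. The check therefore does not bear on the dependence within cultures or on smaller changes. The genes and partner lists were chosen with earlier results of these data known. Named genes were the called ones, up to 12 per direction by p, or the 5 smallest p-values where fewer than 5 passed, and a fixed set of well-known ones (Rybp, Cdyl, Bend3, Kdm6b, Kdm5d, Tet2, Hdac3, Ezh2, Smarca4 and Dnmt3a), the 5 highest means, and up to 4 called genes per partner list; some other called genes are named beside the counts, and Kdm6a, Xist and Crem were named after their values were seen. Some genes that enter the counts are not reported here by name.

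The 3 libraries of a culture deviated together from their group means (correlations 0.62 to 0.91 over the 30 same-culture pairs), so the culture pairs the LPS libraries. For LPS the blocked results are given mainly as counts. Unless a block is named, the adjusted p of a single gene is from the fit that does not use this pairing. RPKM depth is an estimate from the step of the lowest values, since the deposited RPKM table gives no counts, and intervals from counting are not given. Alternatives were another pseudocount, no filter, the mean over lines, another scaling, blocks, other sets of libraries and leaving out each culture. The 6 h time of the design text was not analysed here. The promoter windows are RefSeq sequences (GRCm38.p6) matched by symbol; their coordinates are not those of mm9.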

Additional observations from a re-analysis of the deposited data

Results flagged for a closer look

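Among 36 of the named genes, the highest and lowest of the 7 DMSO libraries were examined at each time (108 groups of 7), and 9 groups had a library set apart from the others by more than Dixon's 95% critical value of 0.568 of the range; chance flags about 1 in 20 groups. Kdm5d stood apart at all 3 times, at 0.00603, 0.0188 and 0.00567 RPKM at 0, 1 and 2 h in D4, the culture with Xist, against 1.58 RPKM or more in the other DMSO cultures. At 1 h, Bend3 was at 1.04 RPKM in D6 (others 0.540 to 0.734 RPKM), Kdm8 at 2.11 RPKM in D4 (others 0.724 to 1.29 RPKM), Kmt5c at 1.92 RPKM in D3 (others 3.50 to 4.07 RPKM) and Tet3 at 5.51 RPKM in D5 (others 4.22 to 4.71 RPKM). The 1 h libraries of D6 and D4 were shallow (an estimated 5.38 and 9.71 M reads). A part of depth in the values of Bend3 and Kdm8 was not tested. At 2 h Cdyl was at 5.31 RPKM in r1 (others 3.91 to 4.50 RPKM) and Smarce1 at 10.5 RPKM in D6 (others 9.16 to 9.73 RPKM).

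The response of Cdyl to 2 h of LPS differed between MPH and DMSO by 0.98 on the log2 scale, by the interaction term of the limma-trend fit (adjusted p = 0.0358). Its dependence on single cultures and its choice by name stand with the result above.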

How the results depend on the processing

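Of 1503 values of single named genes under an alternative or without a culture, 1358 stayed on the same side of the threshold, 120 lost it, 25 gained it and none changed sign. The number of chromatin genes called for MPH against DMSO at 0 h (1) became 2 with a pseudocount of 1, 2 with limma without a trend, 7 with the culture number as a block, 0 with the culture as a random block, 3 with all 7 DMSO cultures, 2 with the 0 h libraries alone, 2 without the 1 h library labelled M4 and 3 with the Xist covariate, which was chosen after seeing the data. At 1 h (0) it became 2 with the number block and 1 without the library labelled M4. At 2 h (2) it became 4 with the number block, 0 with the culture as a random block, 5 with all 7 DMSO cultures and 0 with the 2 h libraries alone. The culture numbers 3 and 4 are shared by D and M in the titles only, and the same-numbered cultures did not deviate together (correlations -0.47 for M3 with D3 and -0.56 for M4 with D4), whereas M2 deviated with D3 (0.92), M3 with D4 (0.90) and M4 with D5 (0.89); the cause was not tested.

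For LPS in DMSO at 1 h (16) the count became 10 with median-of-ratios scaling, 42 with the culture block, 2 with D3 to D6 alone and 7 without the 1 h libraries of D4, D6 and UKD, the shallowest; at 2 h (69) it became 28 with D3 to D6 alone. For LPS under MPH it became 1 with a pseudocount of 0.1 and 13 with the culture block at 1 h (3), and 58 with the culture block at 2 h (26). The difference of the 2 h responses (1) became 0 without a filter, 2 without a trend and 4 with the culture block. Leaving out each culture in turn gave 0 to 1, 0 to 0 and 0 to 3 genes for MPH against DMSO at 0, 1 and 2 h, 12 to 24 and 56 to 73 for LPS in DMSO at 1 and 2 h, 1 to 4 and 12 to 29 for LPS under MPH, and 0 to 0 for both differences of responses. The block changed no call other than those given here and with the results. With 3 MPH cultures a difference that did not pass is not shown to be absent.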
